A study of Mus musculus with 5 samples.

Results

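Otx1 and Otx2 are the members of the orthodenticle family of homeobox genes that mark the anterior brain, and their RNA was followed through the cell classes of the early mouse eye region. The members were taken by gene symbol from the deposited matrix and make up 2 of its 27998 genes. The samples were the ocular areas of wild-type C57BL/6J mouse embryos with 12, 16, 20, 24 and 26 somites, and no mutation or treatment was applied in any of them. A single embryo was used per stage, its pair of optic areas was cut out with a needle and dissociated with trypsin, and 2000 cells per sample went into 10x Genomics Chromium 3′ libraries, version 3 per the labels. Each stage thus has 1 sample and no replicate.

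Orthodenticle proteins are transcription factors that bind DNA through a paired-like homeodomain. Otx2 is needed to form the forebrain and midbrain, and later in the eye it is known for its role in the retinal pigment epithelium, in photoreceptor precursors and, outside the neural tissue, in the head ectoderm. Otx1 overlaps Otx2 in the anterior brain, and mouse genetics has shown that the genes act together in the optic vesicle, where pigment epithelium fails to form when their joint dose is lowered.

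The homeoboxes are printed here because they show how close the members are in the part that defines the family and how far apart they are as RNA. Both are the 180 coding bases of the homeodomain, 5′ to 3′, read from GENCODE vM21 transcripts, with the bases that differ between the members in capitals.
Otx1: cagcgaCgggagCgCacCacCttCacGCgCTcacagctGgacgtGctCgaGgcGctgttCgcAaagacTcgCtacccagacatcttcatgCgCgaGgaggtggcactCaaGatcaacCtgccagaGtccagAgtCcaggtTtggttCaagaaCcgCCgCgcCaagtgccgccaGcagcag
Otx2: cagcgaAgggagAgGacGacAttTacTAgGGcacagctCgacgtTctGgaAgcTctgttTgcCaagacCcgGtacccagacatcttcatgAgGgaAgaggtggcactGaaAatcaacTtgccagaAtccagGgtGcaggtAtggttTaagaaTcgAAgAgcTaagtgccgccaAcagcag
The sequences differed at 36 of 180 bases, of which 29 were at the last position of a codon, so that 32 of 60 codons but only 1 of 60 residues differed. On GRCm38, Otx1 (ENSMUSG00000005917) lies on chr11:21994764-22002897, minus strand, and its homeobox spans chr11:21997017-21998507 across exons 4 and 5 of 5. Otx2 (ENSMUSG00000021848) lies on chr14:48657677-48673819, minus strand, and its homeobox spans chr14:48659285-48661436 across exons 3 and 4 of 4. The longest run of bases shared by the whole transcripts was 18 bases, and the longest shared by their last 500 bases, where a 3′ library is read, was 8 bases. The antisense gene Otx2os1 overlaps Otx2 over 5112 bases on the plus strand. Whether the authors' counting used strand is not given in the sources used here, so reads of Otx2 and Otx2os1 from the shared bases cannot be told apart if it did not.

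The matrix holds counts of unique molecular identifiers (UMIs), each standing for 1 captured RNA molecule, in 8194 barcodes with suffixes 1 to 5. The suffixes separate 5 libraries but name no stage, so libraries are given by their number, with no order in time read from it. Libraries had 1307 to 1996 barcodes and median UMIs per barcode of 20713 in library 5 to 30922 in library 1, and 80 barcodes shared their sequence with a barcode of another library. After filters 8104 cells were kept. Classes carry the ending -like because they were rebuilt here from marker genes, with Otx1, Otx2 and Otx2os1 left out of the clustering and of the markers. Library 5 stood apart in its makeup: it held 669 of the 1334 optic vesicle-like cells and 0 of the 1937 other forebrain-like cells. A level is given in CPM, the usual scaling of the UMIs of a gene to all UMIs of a class, with an exact 95% Poisson interval in brackets, and a share of cells has an exact Clopper-Pearson 95% interval. These intervals cover counting error only, and UMIs of different genes can be captured with different efficiency, so the balance of Otx1 and Otx2 is compared between classes and not read as a ratio of molecules in the cell. No p-value is given, because cells are not replicates and a stage has 1 embryo.

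Both members were concentrated in the neuroepithelium and the surface ectoderm and were low in mesenchyme and blood. Otx2 reached 117 CPM (114 to 121) over the optic vesicle-like cells, 108 CPM (105 to 110.5) over the other forebrain-like cells, 49.8 CPM (45.9 to 53.9) in surface ectoderm-like cells and 4.43 CPM (3.93 to 4.99) in mesenchyme-like cells. The order for Otx1 was the same, at 41.5 CPM (39.6 to 43.5), 34.2 CPM (32.7 to 35.7), 27.9 CPM (25.1 to 31.1) and 1.02 CPM (0.786 to 1.3). Erythroid-like cells, which should lack both, serve as a rough reference for free RNA. They had 0.827 CPM of Otx1 (0.378 to 1.57) and 1.19 CPM of Otx2 (0.636 to 2.04) at a median of 42580 UMIs per cell. Their own RNA takes up many of these UMIs, with Hbb-y alone at 135900 CPM, so free RNA may have a higher CPM in other classes. The interval of Otx1 in mesenchyme overlapped that of erythroid-like cells, while the interval of Otx2 in mesenchyme lay above it. Inside the libraries the order of the classes for Otx1 was not kept.

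**Figure D1:**
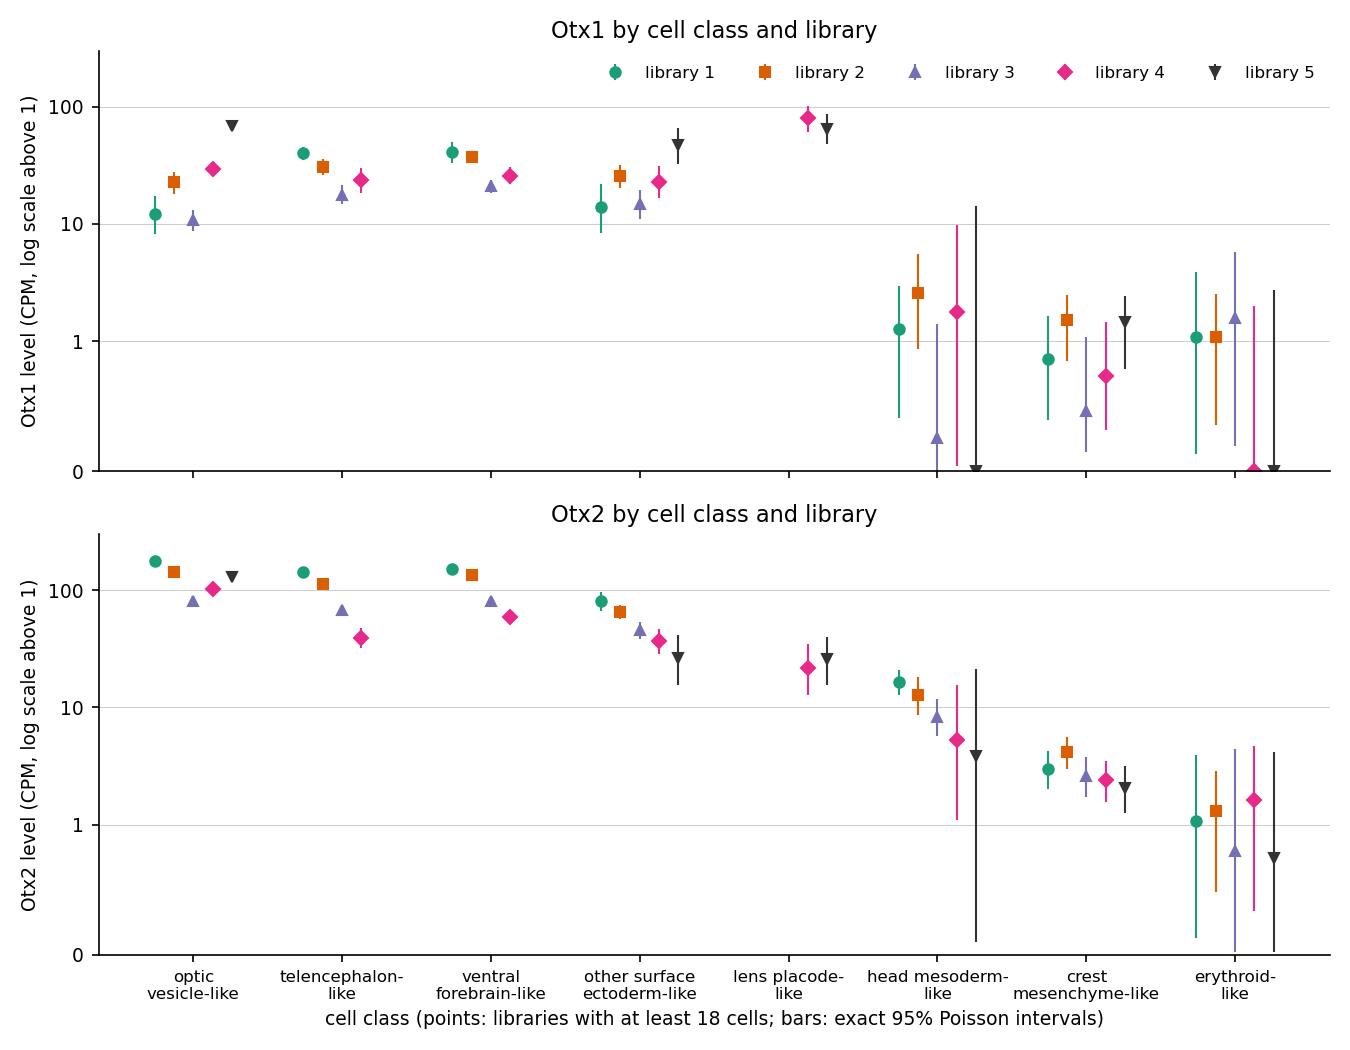
Levels of Otx1 (top) and Otx2 (bottom) in CPM on an axis that is logarithmic above 1 and linear below it, by cell class, with 1 point per library of at least 18 cells and exact 95% Poisson intervals as bars. Otx1 in optic vesicle-like cells is highest in library 5, at 68.9 CPM, while Otx2 in the same cells is highest in library 1, at 178 CPM, and both genes fall to a few CPM or less in crest mesenchyme-like and erythroid-like cells. The telencephalon-like and ventral forebrain-like columns carry names from marker scores and are not compared. Forebrain cells scored as diencephalon or not separated by region, with 85 and 65.7 CPM of Otx1, are not drawn.

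In optic vesicle-like cells, whose classes were named from Rax, Lhx2, Six6 and other eye-field factors, the members differed in which libraries were high. Otx2 stood at 178, 142, 80.2, 102 and 128.5 CPM in libraries 1 to 5. Otx1 stood at 12.2, 22.6, 10.7, 29.2 and 68.9 CPM in the same order. Library 5 was thus the highest of the 5 for Otx1, with an interval (65.2 to 72.7) clear of those of the other libraries, whereas for Otx2 it lay between libraries 4 and 2. Library 1 was highest for Otx2 (162 to 196) and among the lowest for Otx1 (8.23 to 17.4). The intervals of Otx1 in libraries 1 and 3 overlapped (8.66 to 13.2 in library 3), and so did those of libraries 2 and 4 (18.1 to 28 and 25.7 to 32.9). Because the stage of each library is not known, these differences cannot be set against somite number.

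The comparison of the optic vesicle-like class with the other forebrain-like cells asks whether either member marks the eye field within the anterior neural tissue. A difference was called by size when the ratio of CPM was at least 2, its exact 95% interval was clear of 1, the higher class had at least 20 CPM and every library with at least 20 cells of both classes went the same way. By this rule 1.17% of the 5149 genes that reached 20 CPM were called higher in the optic vesicle-like class and 1.11% lower, and neither member was called. Otx2 was higher by a ratio of 1.09 (1.05 to 1.13), with ratios of 1.14, 1.08, 1.06 and 1.47 in libraries 1 to 4, so it was higher in 4 of 4 libraries, but the interval was clear of 1 only in libraries 1 and 4. Otx1 pooled over libraries was also higher, by a ratio of 1.22 (1.14 to 1.3), yet inside the libraries it was lower in the optic vesicle-like cells in 4 of 4. The ratios were 0.242, 0.558, 0.542 and 0.98 in libraries 1 to 4, with intervals clear of 1 in libraries 1 to 3. The pooled ratio rests on library 5, which had the highest Otx1 level and no other forebrain-like cells: without it the ratio was 0.577 (0.521 to 0.638), and with equal weight for each library that held both classes it was 0.532. In library 5 an unnamed sub-cluster of 108 cells, led by Dmrta2, Dlk1, Fezf1 and Fezf2, scored too close between optic vesicle and forebrain to be placed. Its Otx1 was at 20.2 CPM (15.4 to 26), below the 68.9 CPM of the optic vesicle-like cells there. Its marker scores were 0.054 for optic vesicle and -0.014 for telencephalon, so it cannot stand in for other forebrain-like cells. These values therefore do not set optic vesicle against forebrain in library 5. In an alternative added after seeing the data, the neuroepithelial sub-clusters of very high UMI number were counted as optic vesicle. The ratio of Otx1 was then 1.004 (0.943 to 1.07) and that of Otx2 was 0.991. Without library 5 the ratio of Otx2 was 1.005 (0.96 to 1.05) and at the finer clustering 1.01 (0.972 to 1.05), so the pooled Otx2 difference was not clear of 1 in these settings. The leading genes of some sub-clusters held more markers of another class than of their own. Without these, in an alternative also added after seeing the data, the ratio was 1.1 (1.06 to 1.15) for Otx2 and 1.13 (1.06 to 1.2) for Otx1. It was 1.01 (0.974 to 1.06) and 1 (0.931 to 1.07) when markers of optic vesicle regions, such as those of pigment epithelium, were not counted.

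Among the sub-clusters of the other forebrain-like cells, which were made inside each library, Otx1 ran from 0 to 120 CPM and Otx2 from 24.6 to 196 CPM. Several of these sub-clusters had leading genes that held as many or more markers of another forebrain region than of their own, so regions of the forebrain are not compared and the sub-clusters are given by their leading genes. In libraries 2, 3 and 4, 1 sub-cluster each had Sepp1 and Mt3 among its leading genes, and Otx1 was almost absent there. Its levels were 0.765 CPM in library 2 (66 cells), 1.31 CPM in library 3 (102 cells) and 0 CPM in library 4 (75 cells), where the interval allowed up to 2.06 CPM. Otx2 was still present in these cells, at 53.6, 31.1 and 38.5 CPM. Other sub-clusters of the same libraries had far more Otx1: in library 2 those led by Dbx1 with Spink1 and by Dbx1 with Lhx5 had 76.5 and 86.9 CPM, and in library 4 the sub-cluster led by Gsx2 and Fabp7 had 49.4 CPM. The sub-cluster of library 1 led by Fgf8, Fgf17 and the eye-field gene Six6 was low too, with 2.95 CPM of Otx1 and 73.8 CPM of Otx2. Those led by Rspo3 and Wnt8b or by Rspo3 and Wnt7b, genes of the dorsal midline, came from other libraries. They had more Otx1, 103 CPM in library 2 and 32.1 CPM in library 3, with Otx2 at 156.5 and 57.6 CPM. Other sub-clusters with Rspo3 among their leading genes had less Otx1, 23.8 CPM in library 4 and 21.3 CPM in library 3. The library 3 sub-cluster led by Foxb1 and Fam181b had 34.05 CPM. These sub-clusters were singled out after their Otx values had been seen, so the values are a description.

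**Figure D2:**
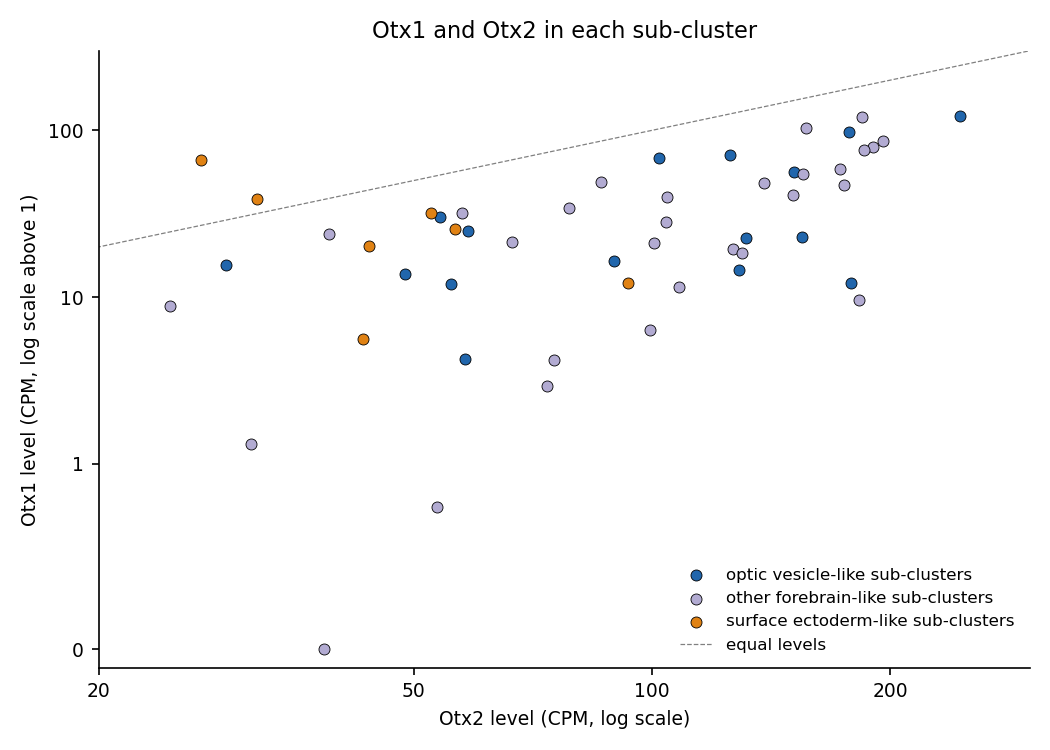
Level of Otx1 (CPM, logarithmic above 1) against level of Otx2 (CPM, logarithmic) in each sub-cluster of the optic vesicle-like, other forebrain-like and surface ectoderm-like classes, with a dashed line where both have the same UMIs. Nearly all sub-clusters lie below the line, 3 other forebrain-like ones have Otx1 at 0, 0.765 and 1.31 CPM with Otx2 at 31.1 CPM or more, and the 2 ectodermal ones above it are the lens placode-like sub-cluster and the one led by Dio3 and Aldh1a3.

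The highest levels of both members among the sub-clusters of library 5 were in the pigment epithelium-like part of the optic vesicle. This sub-cluster of 141 cells was led by Pmel, Krt18 and Dct and met the markers fixed for retinal pigment epithelium, the layer that supports the photoreceptors. Its melanogenesis genes Pmel, Dct and Trpm1 were at 200.4, 149 and 471 CPM, against 12.5, 21.8 and 109 CPM in the rest of the optic vesicle-like cells of library 5, while Tyr was at 0.471 CPM. Otx2 was at 245 CPM (230 to 260) in this sub-cluster and at 95.2 CPM in the rest, a ratio of 2.57 (2.37 to 2.78). Otx1 was at 121 CPM (111 to 132) against 53.8 CPM, a ratio of 2.26 (2.02 to 2.52). Both met the size rule, as did 2.42% of the 5572 genes tested in the higher direction, and 1.24% were lower. In the other settings of doublets, clustering and mitochondrial limit the ratio of Otx1 was 2.44 to 3.1, and that of Otx2 was 2.7 to 2.95 except at the finer clustering, where it fell to 1.62 and was no longer called. The comparison with the Pmel-led sub-cluster rests on library 5. Other sub-clusters were high too: in library 5 the sub-cluster of 66 cells led by Cck, Cela1 and Jag1 had 98.1 CPM of Otx1 (86 to 111) and 177 CPM of Otx2. In library 4 the sub-cluster of 80 cells led by Aldh1a1, which encodes a retinoic acid synthesis enzyme of the dorsal retina, also met the pigment epithelium markers and had 56.6 CPM of Otx1 and 151 CPM of Otx2, against 16.5 and 89.4 CPM in the one led by Vax2 and 13.7 and 48.8 CPM in the one led by BC028528 and Cp.

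Levels in library 5 also differed along the pigment genes. Its optic vesicle-like cells were ordered by the summed level of 17 pigment epithelium genes and cut into 5 bins of 133 or 134 cells. From the lowest to the highest bin, Otx2 had 61.5, 63.5, 102, 147 and 267 CPM and Otx1 had 31.1, 44.4, 61, 81.8 and 124 CPM. Otx2 did not differ beyond its interval between the 2 lowest bins, and each later bin was higher. Ordered instead by 8 neural retina markers, Otx2 went from 209 to 79.7 CPM and Otx1 from 101 to 39.2 CPM between the lowest and highest bin. The share of Otx1 among the UMIs of both members lay between 31.7% (29.3 to 34.2) in the highest pigment bin and 41.2% (36.4 to 46.1) in the second lowest, and these intervals did not overlap. The bins were chosen after the values of the sub-clusters had been seen.

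**Figure D3:**
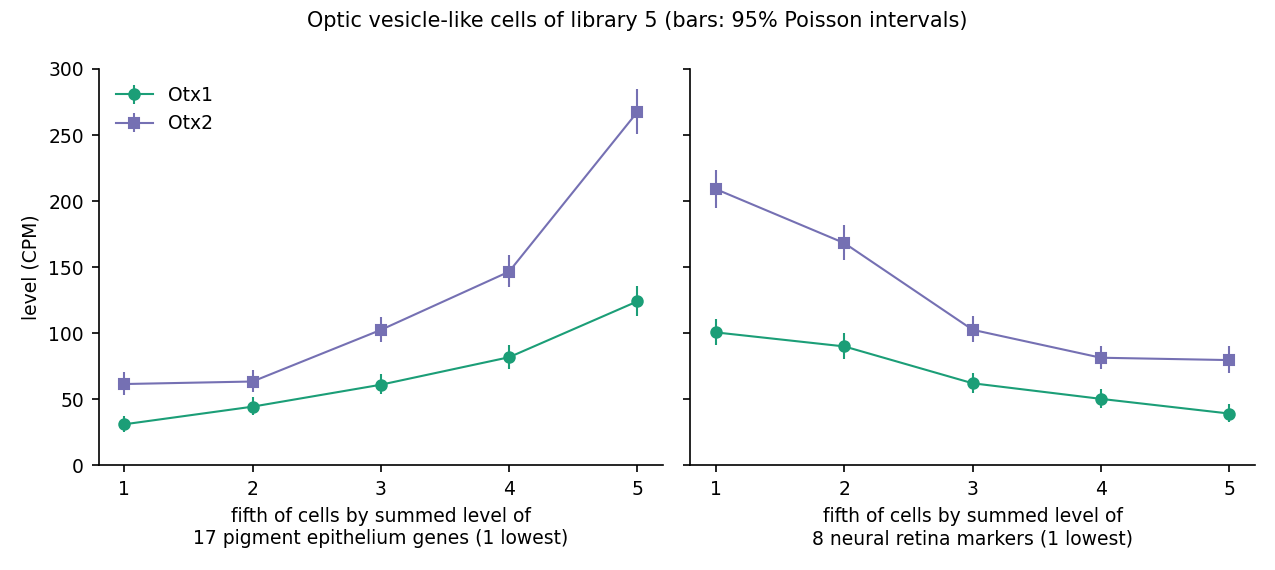
Level (CPM) of Otx1 and Otx2 in the optic vesicle-like cells of library 5, cut into 5 equal bins by the summed level of pigment epithelium genes (left) or of neural retina markers (right), with exact 95% Poisson intervals as bars. Otx2 rises to 267 CPM and Otx1 to 124 CPM in the bin with the most pigment gene RNA. Over the bins of neural retina markers both fall, to 79.7 CPM of Otx2 and 39.2 CPM of Otx1 in the highest bin. The interval of Otx2 there overlaps that of the bin below, at 81.45 CPM.

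Otx1 was higher in dorsal than in ventral optic vesicle-like cells in 4 of 5 libraries. Cells were split by UMIs of Tbx5, a T-box factor of the dorsal optic vesicle, and Vax2, a homeobox factor of the ventral one. In libraries 2 to 5, Otx1 had 30.9, 22, 62.3 and 95.5 CPM in the cells with Tbx5 and no Vax2. It had 6.15, 6.48, 18.4 and 57.7 CPM in the cells with Vax2 and no Tbx5, and the intervals of the groups did not overlap in any of these 4 libraries. In libraries 2 and 3 the groups with Tbx5 had only 16 cells each, with 20 and 14 Otx1 UMIs. In library 1 the order was the opposite, 12 against 49.2 CPM, from only 6 and 5 cells. For Otx2 the values in libraries 2 to 5 were 153, 116, 119.5 and 119 CPM with Tbx5 and 128, 70, 89.4 and 116 CPM with Vax2, with intervals that overlapped in libraries 2 and 5. The median depths of the groups differed by library, from 26800 to 39610 UMIs with Tbx5 and from 27360 to 38410 UMIs with Vax2 in libraries 2 to 5, and the part of depth in the split was not tested.

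In the surface ectoderm-like class, named from Epcam, Cdh1, Wnt6 and other epithelial genes, Otx2 had 80.6, 65.1, 45.2, 32.5 and 26 CPM in libraries 1 to 5 and Otx1 had 13.9, 26, 14.5, 39.6 and 56.2 CPM. Library 1 was highest for Otx2 and lowest for Otx1 and library 5 the reverse, while the Otx1 intervals of libraries 1 and 3 overlapped. The makeup of the class differed too: 21 of the 35 ectodermal cells of library 1 fell in the sub-cluster led by Fgf8 and Grhl3, while 32 of the cells of library 5 were lens placode-like and 29 fell in the one led by Neurog1 and Foxi2. The part of this makeup in the differences between libraries was not tested. Otx2 was higher in the optic vesicle-like class than in ectoderm by a ratio of 2.36 (2.17 to 2.57) and was called, with ratios of 2.21, 2.18, 1.77, 3.15 and 4.94 in libraries 1 to 5, where 1.83% of 5461 genes were called higher and 5.29% lower. The other forebrain-like cells exceeded ectoderm in Otx2 by a ratio of 2.17 (1.99 to 2.36), where 2.35% of 5494 genes were called higher and 6.32% lower. Otx1 was not called in either comparison. Its pooled ratio of optic vesicle to ectoderm was 1.49 (1.32 to 1.67), but it was lower in the optic vesicle in 4 of 5 libraries, at 0.876, 0.87, 0.741, 0.735 and 1.22, and only the interval of library 4 was clear of 1. Without library 5 this ratio was 0.813 (0.698 to 0.95).

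Ectodermal sub-clusters ranged over more than a factor of 10 in Otx1. The sub-cluster led by Hesx1 and Lhx3, genes of the pituitary placode, had 5.59 CPM of Otx1 and 43.2 CPM of Otx2 in 65 cells. The one led by Fgf8, Grhl3 and Bmp2 had 12.1 CPM of Otx1 and the highest Otx2 of the ectoderm, 93.2 CPM, in 35 cells. The lens placode-like sub-cluster stood at the other end, with 66.5 CPM of Otx1 (54.9 to 79.7) and 26.9 CPM of Otx2 (19.8 to 35.8) in 57 cells. Its name rests on Pitx3, Maf and Mab21l1, at 28.1, 116 and 78.5 CPM, while Prox1 was at 7.45 CPM and Foxe3, a defining lens gene, was at 0. Against the rest of the surface ectoderm, Otx1 was higher by a ratio of 3.08 (2.44 to 3.87) and was called, where 1.59% of 5711 genes were called higher and 1.61% lower, and the ratio of Otx2 was 0.503 (0.365 to 0.678), just short of the rule. Otx2 was called lower with doublets kept (0.372), with the members allowed in the clustering (0.416), without library 2 (0.498) and without library 3 (0.468). The cells came from few libraries, 20 from library 4, 32 from library 5, 4 from library 2 and 1 from library 3, and the ratio of Otx1 was 3.46 (2.31 to 5.23) in library 4 but 1.38 (0.863 to 2.23) in library 5, where the interval took in 1. The ratio of Otx2 was 0.592 (0.326 to 1.017) in library 4 and 0.97 (0.482 to 1.96) in library 5, and each interval took in 1. A lower Otx2 in the lens placode-like cells was thus not clear inside either library. Otx1 was no longer called with doublets kept (2.54) or at the finer clustering (1.65). The comparison was chosen after the values had been seen.

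Mesenchyme-like cells, named from Twist1, Prrx1, Foxc2 and related genes, had 0.41 to 1.71 CPM of Otx1 and 2.11 to 6.68 CPM of Otx2 in the 5 libraries. The optic vesicle-like class exceeded them by a ratio of 40.7 (31.7 to 53) for Otx1 and 26.5 (23.4 to 30) for Otx2, and both were called, where 3.93% of 5391 genes were called higher and 4.28% lower. The ratio was above 12 in each of the 5 libraries for both members. Without library 5 the ratio of Otx1 was 20.8 and the optic vesicle-like level was under 20 CPM, so the rule was not met.

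Inside the mesenchyme the level of Otx2 was higher in the head mesoderm-like cells, named from Foxc2, Tcf21 and others, than in those of neural crest, although the far more numerous crest cells held 146 of the Otx2 UMIs and head mesoderm 132. Head mesoderm-like cells had 16.4, 12.8, 8.36, 5.29 and 3.84 CPM of Otx2 in libraries 1 to 5 and crest mesenchyme-like cells 2.98, 4.13, 2.62, 2.39 and 2.06 CPM. The head mesoderm-like cells were higher in each library, with ratios of 5.51, 3.09, 3.2 and 2.21 in libraries 1 to 4, and the interval took in 1 in library 4, which had 24 such cells. Library 5 had 18 such cells and 1 Otx2 UMI. The pooled ratio was 4.21 (3.3 to 5.37), but the level, 11.9 CPM, was under the minimum of 20 CPM, so Otx2 was not called, where 2.18% of 5314 genes were called higher and 0.809% lower. Otx1 showed no such difference, at 1.17 against 0.988 CPM, a ratio of 1.19 (0.592 to 2.21). Of 445 head mesoderm-like cells, 22.5% had an Otx2 UMI, against 6.2% of crest cells and 4.35% of erythroid-like cells. With every cell thinned to 10000 UMIs the shares were 10.9%, 2.75% and 0.791%. The 100 head mesoderm-like cells with an Otx2 UMI had more RNA of the 7 neuroepithelial markers than the 345 without, 95.7 against 73.5 CPM, though far less than the 214 CPM of the optic vesicle-like class. Rax was at 9.41 against 3.17 CPM, Lhx2 at 7.45 against 3.63 CPM, Six6 at 6.67 against 2.23 CPM and Sox2, which defines neural progenitors, at 3.92 against 1.99 CPM, from 10 and 17 UMIs. Crest cells had 86 CPM of the same markers and 4.4 CPM of Rax. The marker sum was higher in the cells with an Otx2 UMI in libraries 1 to 4, at 106, 122, 68 and 69.4 CPM against 81.1, 91, 55.1 and 54.5 CPM. In library 5 it was 60 against 127 CPM, from 1 cell with an Otx2 UMI. The part of RNA from neuroepithelium in the Otx2 of head mesoderm was not tested.

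The balance between the members is given as the share of Otx1 among the UMIs of both, which does not depend on depth or on other genes. In optic vesicle-like cells it was 6.4%, 13.8%, 11.8%, 22.2% and 34.9% in libraries 1 to 5. In other forebrain-like cells it lay in a narrower range, at 24.4%, 23.7%, 20.8% and 30% in libraries 1 to 4. The optic vesicle-like share was below the forebrain share in 4 of 4 libraries, with intervals that did not overlap in each of them. In library 5 the share in the unnamed neuroepithelial sub-cluster was 33.9% (27 to 41.4), close to the optic vesicle-like share there. In ectoderm-like cells other than lens placode it was 14.7%, 28%, 24.5%, 38.4% and 64% in libraries 1 to 5. Lens placode-like cells had 78.5% in library 4 and 71.6% in library 5. Among these groups, the ectoderm other than lens placode of library 5 and the lens placode-like cells of libraries 4 and 5 had more UMIs of Otx1 than of Otx2, although the interval in library 5 ectoderm reached down to 49.2%.

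**Figure D4:**
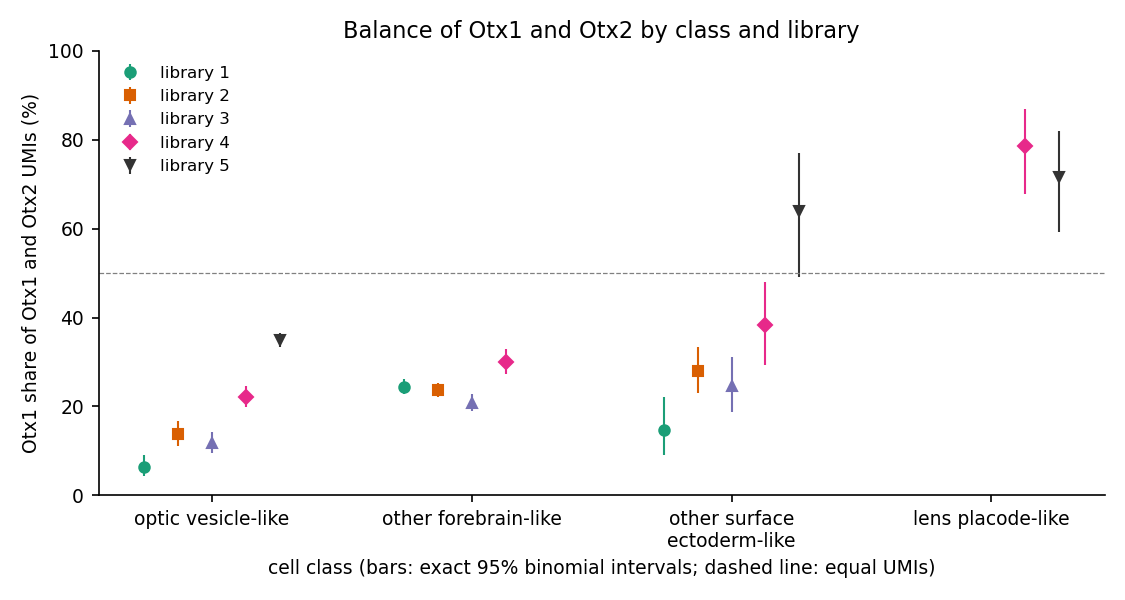
Share of Otx1 among the UMIs of Otx1 and Otx2 (%) by cell class, with 1 point per library of at least 18 cells and exact 95% binomial intervals as bars. The optic vesicle-like share runs from 6.4% in library 1 to 34.9% in library 5, below the other forebrain-like share in each library that has both, and the lens placode-like points at 78.5% and 71.6% lie above the dashed line at equal UMIs.

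Detection of both members in the same cell was counted after thinning each cell to 10000 UMIs, which left out 370 shallower cells. In 1291 optic vesicle-like cells, 29.5% had Otx1, 56.1% had Otx2 and 21% (18.8 to 23.3) had both, against 16.6% if the shares were multiplied. Multiplied inside each sub-cluster and then averaged, the shares gave 19.4%, within the interval of the measured value. By library the share with both was 14.7%, 15.4%, 6.64%, 15.1% and 30.5%. In 1888 other forebrain-like cells 16.9% (15.2 to 18.7) had both, against 13.9% and 16.4% by the 2 products. In 384 surface ectoderm-like cells 5.47% (3.42 to 8.24) had both, against 6% and 4.94%. Among 253 erythroid-like cells 0 had both, where 3 cells would have made 1.19%, and 3 of 2151 mesenchyme-like cells did. Without thinning, 43.9% of optic vesicle-like and 40.9% of other forebrain-like cells had both, at median depths of 29120 and 27000 UMIs. Counts per thinned cell had a median ratio of variance to mean of 1.26 for Otx2 over 50 sub-clusters and 1.24 for Otx1 over 29. Sub-clusters with very few UMIs per cell were left out of these. The ratio ranged from 0.643 to 2.14 for Otx2 and from 0.937 to 1.92 for Otx1, where Poisson counts give 1. Thinning itself draws counts towards Poisson, so these ratios do not give the spread of the full counts.

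Pooled over sub-clusters, cells with more Otx2 also had more Otx1. Over the optic vesicle-like, other forebrain-like and unnamed neuroepithelial cells, thinned alike, Otx1 was at 23.2 CPM in the 1429 cells with no Otx2 UMI, 37.7 CPM in the 916 cells with 1 and 58.9 CPM in the 941 cells with at least 2. In libraries 1 to 5 it was at 37.5, 23.9, 11.2, 24.6 and 31.2 CPM in cells with none and 59.7, 52.9, 22.2, 53.9 and 100.5 CPM in cells with at least 2, so it was higher in 5 of 5. The ratio was 2.53 (2.21 to 2.91), and without each library in turn it was 2.34 to 2.66. Much of this went with the sub-cluster. Set against the cells with no Otx2 UMI of the same sub-clusters, weighted alike, in a comparison added after seeing the data, Otx1 was at 58.9 CPM (54.1 to 64) against 46.5 CPM, a ratio of 1.27 that is under the size rule. This ratio was 1.54, 1.13, 1.64, 1.29 and 1.19 in libraries 1 to 5, and Otx1 was higher in 28 of 46 sub-clusters. The median depth before thinning was 28650 UMIs in the cells with at least 2 and 27260 in those with none. Otx1 was 1 of only 8 genes called higher in this comparison, 0.155% of 5147 tested, and 2 genes, 0.0389%, were lower. Otx2 itself was among the 8 by construction. The other 6, named after their values were seen, were Slc38a8, an amino acid transporter gene (3.56-fold), Dkk1, a secreted WNT inhibitor (2.75-fold), Bmp4, a bone morphogenetic protein (2.37-fold), the forkhead factor Foxb1 (2.2-fold), 3632451O06Rik (2.1-fold) and Fam181b (2.02-fold). The 2 lower ones were the transcription factors Maf, at 8.93 against 28.2 CPM, and Dmrta2, at 13 against 34 CPM.

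The genes most like each member were looked for over 44 sums of neuroepithelial cells, each a sub-cluster of at least 30 cells of 1 library, by Pearson's r of log2(CPM + 5). These sums share libraries and tissue, so r describes them and carries no test. For Otx1 the likest of 7094 genes was Ehbp1, with an r of 0.967. It was followed by Robo2, a receptor for Slit guidance cues (0.877), Rab38, a small GTPase of melanosome transport (0.783), 2510009E07Rik (0.778), Axin2, a feedback inhibitor of WNT signalling (0.757), and Tnfrsf19, a receptor of the tumour necrosis factor family (0.728). Otx2 ranked 18 for likeness to Otx1, with an r of 0.653. For Otx2 the likest were the lipid droplet protein gene Plin3 (0.809), the growth cone gene Gap43 (0.78), the alkaline phosphatase gene Alpl (0.738), the calmodulin gene Calm2 (0.716), Dkk1 (0.716) and Mtss1 (0.713). Over all 67 sums, of every tissue, Ehbp1 (0.957), Otx2 (0.828) and Fam171b (0.822) led for Otx1, and Alpl (0.947), Uchl1 (0.91) and Atp6v0e2 (0.904) for Otx2. Inside the libraries, r between the members was 0.0676, 0.765, 0.465, 0.753 and 0.987 in libraries 1 to 5, over 7, 12, 9, 8 and 8 sums.

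Ehbp1, which encodes a protein of endocytic transport, is also the nearest neighbour of Otx1 among the genes of the matrix. On GRCm38 it lies on chr11:22005828-22342292, on the same strand, and its 3′ end is 2930 bases from the 5′ end of Otx1, so that the genes do not overlap. Whether reads of 1 of these genes were assigned to the other cannot be seen from the counts and was not tested, and it would bear on the values of both. Its r with Otx1 was 0.903, 0.972, 0.939, 0.984 and 0.995 inside libraries 1 to 5, and leaving out each library in turn gave 0.96 to 0.972. In optic vesicle-like cells Ehbp1 had 35.8, 26.1, 17.3, 38.7 and 86.6 CPM in libraries 1 to 5, in other forebrain-like cells 62.7, 51, 39.1 and 40.1 CPM in libraries 1 to 4, and in surface ectoderm-like cells 36.6 to 94.9 CPM. Library 5 was again the highest in the optic vesicle and library 3 the lowest. Where Otx1 was near 0, Ehbp1 was low but above the level of erythroid-like cells, at 6.57 CPM (5.95 to 7.24) in mesenchyme and 5.1 CPM (3.95 to 6.49) in endothelium against 0.827 CPM (0.378 to 1.57). Between single cells pooled over sub-clusters, thinned neuroepithelial cells with at least 2 Otx1 UMIs had 112 CPM of Ehbp1 (99.6 to 125), those with 1 had 78.5 CPM (71.5 to 86.1) and those with none had 35 CPM (32.7 to 37.5). Cells with at least 2 exceeded those with none in 5 of 5 libraries, and the intervals overlapped only in library 1 (60.3 to 116 and 45.4 to 62.3). Against the cells with no Otx1 UMI of the same sub-clusters the ratio was smaller, 112 against 75.5 CPM or 1.48, with 1.31, 1.75, 2.35, 1.86 and 1.27 in libraries 1 to 5 and Ehbp1 higher in 22 of 36 sub-clusters. Mdh1 was the only other gene within 500000 bases of Otx1 to reach 20 CPM in these sums, and its r was -0.02. Around Otx2, Exoc5 and Peli2 reached that level, with an r of 0.67 and 0.5.

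**Figure D5:**
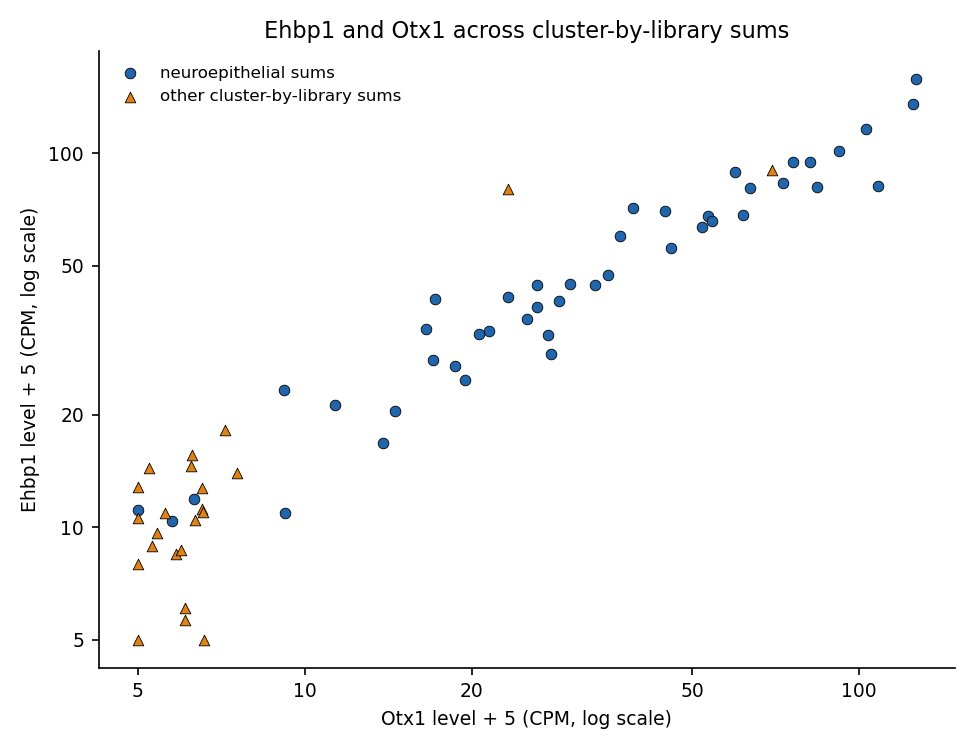
Level of Ehbp1 against level of Otx1, both in CPM plus 5 on logarithmic axes, with 1 point per cluster-by-library sum of at least 30 cells. Circles are the 44 neuroepithelial sums, over which r was 0.967, and triangles are the sums of other tissues, most of which have Otx1 near 0.

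Genes of known related roles were taken from 6 lists, and their counts in the comparison of optic vesicle-like with other forebrain-like cells are set against the 60 genes higher and 57 lower of 5149, with a median log2 ratio of -0.03. Of 15 paired-like homeobox relatives of the members, such as Crx and Gsc, only Rax reached 20 CPM, and it was called higher (192 against 90.6 CPM). Rax was a marker of the optic vesicle-like class, as were several genes of the next list, so these values describe the classes and support nothing. Of 16 eye field and retina genes, 11 were tested, 7 were higher and 0 lower, with a median log2 ratio of 1.04. The largest ratios were Vax2 (19.2-fold), Pax2 (11-fold), Meis1 (3.76-fold), a TALE homeobox gene that was no marker, and Fgf15 (3.18-fold). Of 15 anterior specification genes, 9 were tested and 3 were lower: Lhx5 (5.37 against 88.5 CPM), Fezf1 (15.7 against 43.2 CPM) and Fezf2 (16.3 against 35.1 CPM). Lhx5 and Fezf2 were markers used to name the other forebrain-like cells, so their direction describes the classes. Dkk1 in this list had a ratio of 2.28 but was higher in only 3 of 4 libraries and was not called. Of 20 boundary and organiser genes, 6 were tested, with Pax2 higher and Emx2, Nkx2-1 and Shh lower, all 4 of them class markers. Of 17 pigment epithelium genes 7 were tested, with Mitf, a marker of the optic vesicle-like class, and Pmel higher and Wls lower. Trpm1 in this list had 95.4 against 0.586 CPM but was higher in 3 of 4 libraries and was not called. Of 12 lens and ectoderm genes 5 were tested, with Pax6, also a marker of the optic vesicle-like class, and Mab21l1 higher and Sox1 lower. In the comparison of cells with at least 2 Otx2 UMIs against none, the lists gave few calls: Dkk1 was higher among 9 anterior specification genes tested, Maf was lower among 5 lens and ectoderm genes tested, and 0 of 11 eye field genes were called, with a median log2 ratio of -0.17 there and 0.04 over all genes tested. Six6, an eye-field factor, had 133 against 253 CPM in that comparison, lower in 5 of 5 libraries by a ratio of 0.525 that did not reach the rule.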

How the data were processed

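Single-cell RNA sequencing was done on 5 samples, each the pair of optic areas of a single embryo. The deposited matrix holds UMI counts made by the authors, whole numbers without normalisation. The submitters' processing notes name Cell Ranger and mm10 (GRCm38). For the version, the cell calling and the use of strand, a statement is not given in the sources used here. The coordinates and sequences come from GENCODE vM21 on GRCm38, and no protein sequences were used here.

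A barcode was kept if it had 1000 genes or more and no more than 10% mitochondrial UMIs, so 22 were dropped. Scrublet (scanpy 1.11.5, per library, 6% expected) marked 68 doublets (0.832%), and under 0.5% in libraries 3, 4 and 5, so doublets may remain. The 8104 cells were clustered (2000 variable genes, 30 components, 15 neighbours, Leiden resolution 1, no integration), giving 26 clusters. Neuroepithelium was clustered again inside each library, because pooled sub-clusters separated by library, and ectoderm over all libraries. A name needed at least 3 listed markers with 10 UMIs and a 2-fold higher level. Nucleus-depleted (Malat1 under 1000 CPM), mixed and high-UMI sub-clusters (median UMIs at least 2 times that of their library's neuroepithelium) stayed out of the classes. Names of forebrain regions are not used in the comparisons, because leading genes of several sub-clusters held markers of more than 1 region.

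The members and gene lists were chosen with earlier results of these data known. The naming rules were settled over 3 rounds after the clusters were seen, with the Otx1 and Otx2 levels of each cluster on view, so the class borders are not blind to them. The comparisons of head mesoderm with crest, of lens placode and of the Pmel-led sub-cluster, the library 5 bins, the dorsal and ventral split, and the account of Ehbp1 and its neighbours were added after values were seen. Genes named were the 6 likest to each member over neuroepithelial sums and 3 over all sums, and the largest ratios of the context lists. CPM were computed here from summed counts. The size rule was tested on simulated data. Cells were thinned by random draws without replacement. Results on some marker genes are not reported here.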

Additional observations from a re-analysis of the deposited data

How the results depend on the processing

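No paired analysis was possible because the comparisons come from no test, each stage has 1 sample and the libraries carry no stage, while the ratios inside each library stand beside the results. Class comparisons were repeated with doublets kept, at Leiden resolution 2, with the members allowed in the clustering, at a mitochondrial limit of 5%, with libraries weighted equally and without each library in turn. The ratio of Otx1 in optic vesicle-like against other forebrain-like cells turned from 1.22 to 0.532 with equal weights and to 0.577 without library 5 (0.577 to 1.45 over the libraries left out), and that against ectoderm from 1.49 to 0.955 and 0.813 (0.813 to 1.81). Against mesenchyme it fell from 40.7 to 20.8 without library 5 and was not called (20.8 to 50.8). Otx2 against other forebrain turned from 1.09 to 0.991 with high-UMI cells counted in, an alternative chosen after seeing the data. The cause was not tested beyond the makeup of library 5.

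Thinned levels were 114 CPM of Otx2 in optic vesicle-like, 111 CPM in other forebrain-like, and 45.6 CPM of Otx2 and 23.4 CPM of Otx1 in ectoderm-like cells. The Otx1 share without each library was 15.4% to 28% in the optic vesicle and 31.2% to 39.6% in ectoderm. Cells with both members were 7.05%, 7.54% and 2.8% of the 3 classes at 5000 UMIs, and 4.26%, 4.18% and 0.521% at 2 UMIs or more. In the optic vesicle they were 16.7% with doublets kept, a cause not tested, and 12.1% to 24.3% without each library, and 14% to 21.2% in other forebrain. Genes lower in the optic vesicle fell from 57 to 32 at resolution 2. Over the main results, 98 alternatives kept direction and call or stayed within error, 24 moved, 5 reversed and 1 lost its call. A kept direction did not mean a kept size. The pooled ratio of Otx1 to other forebrain counted as kept at 1.004 (0.943 to 1.07) with high-UMI cells counted in, against 1.22 in the main setting. The 370 cells with under 10000 UMIs were left out of thinned shares.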

Other observations

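Several groups of cells outside the classes carried Otx2, and most of them also Otx1. Of these, 11 cells of library 1, led by Acta2, Shh, Spink1 and T, had 215 CPM of Otx2 (171 to 267) and 2.59 CPM of Otx1 (0.0656 to 14.4), with an Otx2 UMI in each of the 11 and an Otx1 UMI in 1, an interval that overlaps the erythroid-like level of Otx1. This was among the highest Otx2 levels of any group and among the lowest Otx1 shares, 1.19% (0.0301 to 6.46). T, the brachyury gene, was at 324 CPM and Shh at 583 CPM there, against 0 and 1.14 CPM in surface ectoderm-like cells, and Epcam was at 469 CPM. The group met 3 markers of endoderm, but its leading genes do not match that name, and it was left unnamed.

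Neuron-like cells, 32 in all, had 47.2 CPM of Otx1 and 89.3 CPM of Otx2. In library 5 an unnamed neuroepithelial sub-cluster of 108 cells, led by Dmrta2, Dlk1, Fezf1 and Fezf2, had 20.2 CPM of Otx1 and 39.3 CPM of Otx2, below the levels of the optic vesicle-like cells of that library. The 790 nucleus-depleted cells had 17.5 CPM of Otx1 and 62.5 CPM of Otx2 at a median of 13570 UMIs, the 349 mixed cells 22.5 and 67 CPM at 51650 UMIs, and the 221 high-UMI cells 14.8 and 78.7 CPM at 67820 UMIs.

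Endothelium-like cells of library 1 had 8.55 CPM of Otx2 (5.22 to 13.2), above the 0.423 to 1.81 CPM of libraries 2 to 5. These were 20 UMIs in 13 of 62 cells, with 8 in a single cell. The antisense gene Otx2os1 had 4.3 CPM in optic vesicle-like, 4.03 CPM in other forebrain-like, 1.14 CPM in ectoderm-like and 0.16 CPM in mesenchyme-like cells, and 12.7 CPM in the Pmel-led sub-cluster of library 5. Crx, the other orthodenticle-related homeobox gene, was at 0.628 CPM in optic vesicle-like cells and at 0 in the other forebrain-like and surface ectoderm-like cells.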
